A study of Homo sapiens with 4 samples.

Results

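The nuclear-encoded subunits of the respiratory chain were followed through a map of N6-methyladenosine (m6A) in HEK293T cells, a human embryonic kidney line, treated or not with ascorbic acid. Members were chosen by gene symbol, as every site in a gene named NDUFA, B, C, S or V plus a number, SDHA to SDHD, UQCR, COX4 to COX8 or ATP5, without pseudogene symbols. A site was tested where every one of the 4 libraries listed it on 20 or more reads, which left 78509 sites, and 160 of them, in 62 genes, met the rule. In the 2 ascorbic acid libraries, wild-type HEK293T cells had been seeded for 24 h and exposed to ascorbic acid for 36 h, with fresh medium every 6 h. The sources used here give no dose. The 2 control libraries came from wild-type HEK293T cells of the same line without the agent. These cells had also been seeded for 24 h and given fresh medium every 6 h. The assay, GLORI, deaminates adenosine without a methyl group, which is then sequenced as G, and the level of a site is the share of its A and G reads that stayed A. The 4 libraries held 22592887 to 28562744 A plus G reads over their listed sites. Nothing in the labels says whether the libraries of a group came from separate cultures, so the tests measure only the spread between these libraries.

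The respiratory chain passes electrons from NADH (complex I) and succinate (complex II) through complex III and complex IV to oxygen, and the ATP synthase, complex V, uses the proton gradient that the chain builds. Most subunits are made from short, abundant nuclear mRNAs and imported, while a few come from mitochondrial DNA and were not members. Most m6A lies inside a short consensus, often near the stop codon or in long internal exons. A different mark, m6Am, is made on an adenosine that is the first base of an mRNA, and GLORI leaves it as A too, so a site at a gene start cannot be assigned to either mark by these reads.

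The authors' lists held 438 respiratory chain sites in 78 genes in at least 1 library. Of these, 167 were listed in 1 library alone, 164 in all 4, and 4 of the 164 had too few reads to be tested. Sites listed in 1 library alone numbered 23 in ascorbic acid 1 and 43 in ascorbic acid 2. Control 1 had 22 and control 2 had 79, so that control 2 stood apart. Both control libraries and neither ascorbic acid library listed 12 sites, and 4 were listed the other way round. Such sites were not tested, so none of them could be counted as fallen or risen. The authors gave a conversion rate for each gene, and the rest is its unconverted share. Over the 62 respiratory chain genes with a tested site the unconverted share had a median of 2.43% and 2.57% in the ascorbic acid libraries. It was 2.05% in control 1 and 3.56% in control 2. Over all 10782 tested genes it was 2.77% and 2.93% with ascorbic acid, 2.59% in control 1 and 4.01% in control 2. Results that turn on control 2 are therefore given without it as well. The genes with a listed but no tested site were ATP5F1C, ATP5MC1, ATP5MC2, ATP5ME, ATP5PD, NDUFA3, NDUFA5, NDUFA12, NDUFB3, NDUFB5, NDUFB6, NDUFV1, SDHB, SDHD, UQCRC2 and UQCRFS1. The symbol rule also took in 2 readthrough genes with 22 tested sites and 2 noncoding genes with 3, which leaves 135 sites in 58 subunit genes. Of 10 genes that mark HEK293 cells, 9 had a listed site, and of 12 markers of other cell types only ACTN2 and COL1A1 did.

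A start window of 250 bases before to 50 bases after an annotated RefSeq start (GRCh38.p14) held 54 of the 160 sites, or 33.8%, against 2.46% of all tested sites. Exactly on the annotated first base lay 21 of them, or 13.1%, against 1.12% of all sites. The 78509 sites include those outside named genes and any in genes without a RefSeq match. No distance to a start was found for these, and they counted as outside the window. Some of these sites are shown because so large a share of the respiratory chain sites lies there. Each sequence below comes from RefSeq (GRCh38.p14), is written 5′ to 3′ on the gene's strand, and has the listed adenosine in a capital. The first 8 have that adenosine on the annotated first base, and the last 2 are window sites inside the m6A consensus.
COX6A1, chr12:120438098-120438127, + strand: ttccggcgctgcggcAgtccagatcaaaaa
NDUFS4, chr5:53560624-53560653, + strand: gtgatccgtcctttcAtcctggcgtttgcc
ATP5PF, chr21:25734890-25734919, - strand: gccagggccggaagtAgagcggaggtggtg
NDUFA11, chr19:5903776-5903805, - strand: cgcgcgcagcccgagAagtctcgcgatagc
UQCR11, chr19:1605448-1605477, - strand: cggccgcgcctgcgcAgtgtagccgggtca
NDUFS6, chr5:1801392-1801421, + strand: gccgggtcaaaggccAgcggcgcaaaatgg
NDUFA9, chr12:4649099-4649128, + strand: gtgctgtcgtgggggAttgtgggaaaagat
COX8A, chr11:63974605-63974634, + strand: ccggccagcgcagccAttttggcttcctga
ATP5MG, chr11:118401517-118401546, + strand: tgcaaagatctttggAcatttaagtatctt
ATP5PF, chr21:25735000-25735029, - strand: cccgtccggtcgcagActgtctccgagacg

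RefSeq gave the base of 43 of the 54 window sites, and it was A in all 43. The m6A consensus was searched on the gene's strand only, as the letters A, G or T, then A or G, then the listed A, then C, then A, C or T. It held 4 of the 43 window sites (in ATP5MG, ATP5MPL, ATP5PF and SDHA), or 9.3%, against 14.1% of all window sites with a known context. At the exact start it held 0 of 14 respiratory chain sites and 1.51% of all such sites. A C followed the adenosine at 7.14% of the respiratory chain start sites, in NDUFB1 alone, against 28.1% of all start sites. Of 61 subunit genes with a RefSeq promoter entry, 24 had an entry with A as its first base, and 14 of those 24 had a tested site there. Over entries, A stood first in 33.8% of those of the subunit genes and in 44.4% of all 35116. The match of letters is a description of these windows only.

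The start window sites spanned a wide range of levels, and 2 of the 54 passed the edgeR test, 1 in each direction. COX6A1, a subunit of complex IV, was read as A in 67.8% and 66.5% of reads at its first base with ascorbic acid, against 66.2% and 69.9% in control libraries, from 2124 to 3126 reads a library. ATP5F1B, the catalytic beta subunit of the ATP synthase, stood at 64.7% and 66.1% with ascorbic acid and at 65.0% and 66.8% in control libraries. The groups overlapped at both sites, with log2 odds ratios of -0.07 ± 0.10 SE for COX6A1 and -0.03 ± 0.09 SE for ATP5F1B. NDUFS4, an accessory subunit of complex I, had 54.3% and 60.2% with ascorbic acid against 59.6% and 67.0% in control libraries, on 57 to 118 reads, and its groups also overlapped. COX8A, a small complex IV subunit, had a lower start site, with 17.4% and 18.8% with ascorbic acid against 17.5% and 19.2% in control libraries. SDHC, a membrane anchor of complex II, was the 1 start window site that fell, at 68.7% and 68.0% with ascorbic acid against 71.7% and 74.5% in control libraries (log2 odds ratio -0.34 ± 0.13 SE, edgeR adjusted p = 0.0426). Its groups did not overlap, but the call was lost without ascorbic acid 1, ascorbic acid 2 or control 2, with edgeR adjusted p up to 0.305.

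**Figure D1:**
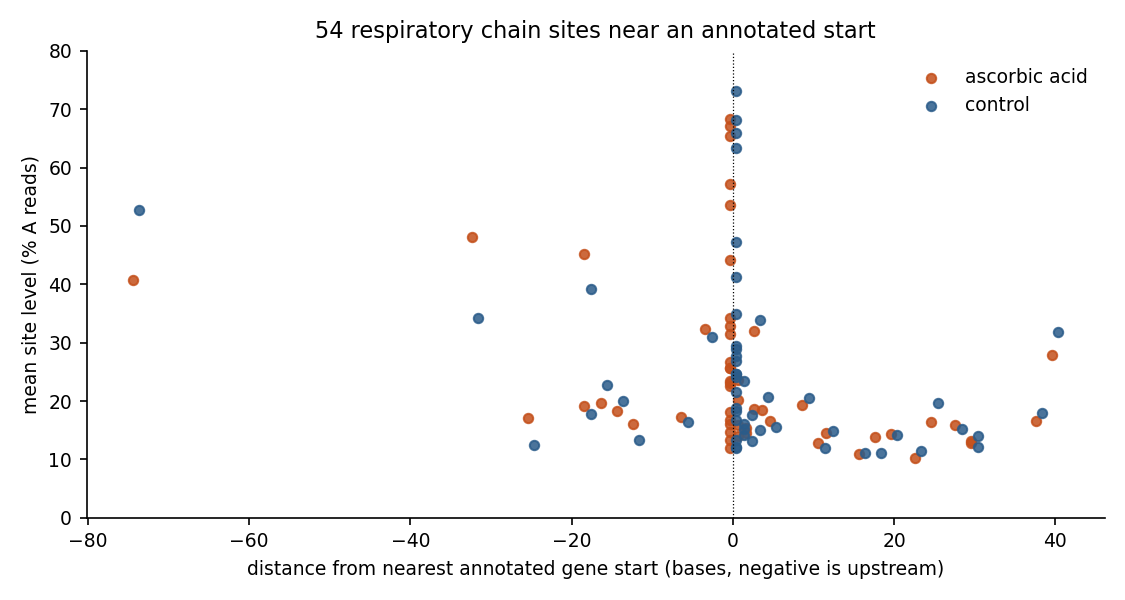
Mean level of the 54 respiratory chain sites in the start window (percent of reads that stayed A, vertical axis) against their distance in bases from the nearest annotated start (horizontal axis), with ascorbic acid in orange and control in blue, each the mean of 2 libraries. The highest levels sit on the first base, up to 68.4% with ascorbic acid and 73.1% in control libraries, and most pairs of points lie close to each other beside the range of levels.

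NDUFS5, a membrane arm subunit of complex I, held the window site that rose. It lies 32 bases before the annotated start, at position 39026318 of chromosome 1 on the + strand. It had 47.6% and 48.7% with ascorbic acid against 32.8% and 35.8% in control libraries, on 103 to 152 reads (log2 odds ratio 0.83 ± 0.26 SE, edgeR adjusted p = 0.0123). The groups were apart, but the edgeR adjusted p was up to 0.133 with a library left out, and the call was lost without ascorbic acid 1, ascorbic acid 2 or control 1. Another site, 25 bases before the start, had 15.4% and 18.7% with ascorbic acid against 10.9% and 14.1% in control libraries and did not pass. The site on the first base of NDUFS5 had 17.7% and 15.7% with ascorbic acid and 19.2% and 18.3% in control libraries, and the gene as a whole did not pass (edgeR adjusted p = 0.424).

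Over the 160 sites, 25 fell with ascorbic acid, 3 rose and 132 did not pass the edgeR test at an adjusted p of 0.05. That is 15.6% fallen and 1.88% risen, beside 25.7% and 0.22% of all 78509 sites. Of the 3 risen sites, 2 were those of NDUFB2, which lie 6 bases apart. In subunit genes alone 19 of 135 fell, or 14.1%. Without control 2 or ascorbic acid 2, which leaves 1 library in a group, fewer of the 160 sites fell and more rose. Over all sites fewer fell in both fits, and more rose only without control 2. The median site level of the respiratory chain was 23.2% and 25.3% in the ascorbic acid libraries, against 26.8% and 29.2% in control libraries, a mean difference of -3.75 points. Both ascorbic acid medians were below both control medians. The difference was -2.53 points without control 2 and -4.96 points without control 1. Subunit genes alone had medians of 21.3% and 23.6% with ascorbic acid against 22.7% and 25.5% in control libraries, which overlap and differ by -1.61 points. The median of the single site differences was -1.43 points over the 160 sites. The exact permutation test over the 4 libraries gave a two-sided p of 0.333 for all 160 sites, the smallest that 2 against 2 allows. Over all sites the mean of the medians was 33.9% with ascorbic acid and 40.9% in control libraries. Ascorbic acid levels were below both control levels at 60 respiratory chain sites, 37.5%, beside 55.4% of all sites, and above both at 8.75%, beside 4.22% of all. Depth differed as well: the median of each site's lowest library was 221.5 reads over the respiratory chain and 86 reads over all sites. With the minimum raised to 50 reads, the difference of the medians was -0.80 points, and over each library's own list it turned to 1.39 points.

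**Figure D2:**
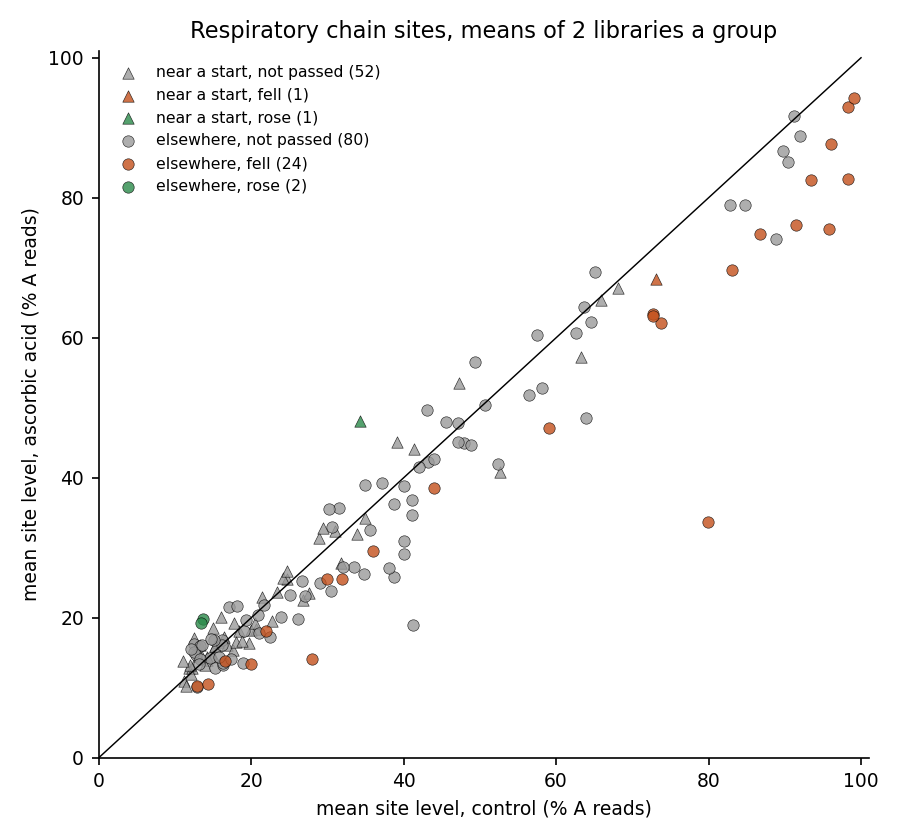
Mean level of each of the 160 respiratory chain sites with ascorbic acid (vertical axis) against control (horizontal axis), in percent of reads that stayed A, each the mean of 2 libraries. Triangles lie in the start window and circles elsewhere. Orange sites fell, green sites rose, grey sites did not pass, and the line marks equal levels. Of the 25 sites that fell, 24 are circles, and 12 of those have a 4-library mean level of 60 to 100%.

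Summed over the sites of each gene, 11 of 62 genes fell and 1 rose, which is 17.7% fallen beside 56.8% of all 10782 genes, and 0.297% of all genes that rose. In the 58 subunit genes, 9 fell, NDUFB2 rose and 48 did not pass. The median log2 odds ratio of a gene was -0.10 over the respiratory chain genes and -0.39 over all genes. Of the 62 genes, 31 (50%) had 1 tested site, against 19.4% of all genes. Among genes with 1 tested site, 6.45% of the respiratory chain genes and 26.4% of all genes fell. Most of these respiratory chain genes had that site in the start window, where 4.66% of all 1932 tested sites fell. The 2 shares are therefore matched on the number of sites and not on their place. With 3 or more sites the shares were 22.2% of 18 respiratory chain genes and 68.3% of all genes.

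**Figure D3:**
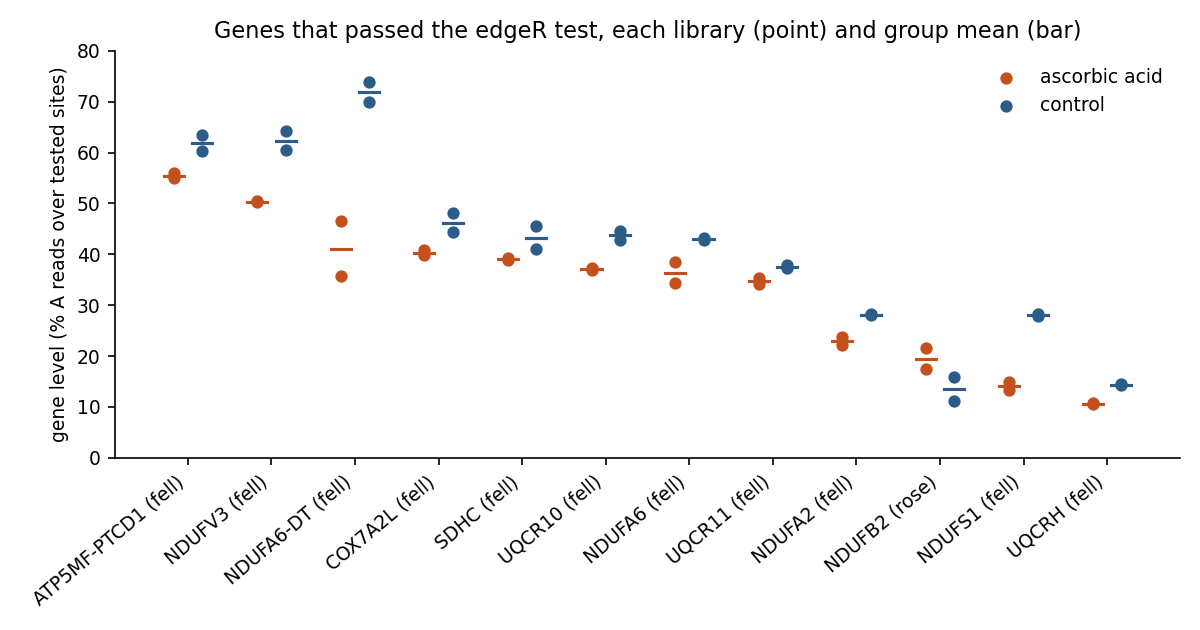
Gene level (percent of reads that stayed A, over all tested sites of each gene together) of the 12 genes that passed the edgeR test, with ascorbic acid in orange to the left of control in blue. Points are single libraries and bars the means of 2 libraries. No gene has groups that overlap, and NDUFB2 is the only one higher with ascorbic acid.

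Complex I, the NADH dehydrogenase, had 28 measured subunit genes, of which NDUFS1, NDUFV3, NDUFA2 and NDUFA6 fell and NDUFB2 rose. NDUFS1, the large iron-sulfur core subunit of the arm that takes electrons from NADH, had 1 tested site, at position 206124142 of chromosome 2 on the - strand. It was read as A in 14.9% and 13.4% of 227 to 306 reads with ascorbic acid, against 27.8% and 28.2% in control libraries. The groups lay far apart beside the spread within each, with a log2 odds ratio of -1.24 ± 0.22 SE (edgeR adjusted p = 5.99e-05 for the gene). NDUFV3, a small subunit on the NADH-binding tip, had 5 tested sites summing to 50.5% and 50.2% with ascorbic acid against 60.5% and 64.2% in control libraries. The gene changed by a log2 odds ratio of -0.70 ± 0.11 SE (edgeR adjusted p = 1.27e-05), and all 5 sites had both ascorbic acid libraries below both control libraries. At position 42903370 of chromosome 21, + strand, NDUFV3 fell to 76.8% and 74.2% with ascorbic acid, against 95.4% and 96.3% in control libraries (edgeR adjusted p = 2.13e-05). A deeper site, at position 42908964 with 631 to 1012 reads, had 47.1% and 47.0% with ascorbic acid against 58.1% and 60.1% in control libraries (edgeR adjusted p = 1.04e-05). NDUFS1 and NDUFV3 passed at the gene level under every setting tried.

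NDUFA2 and NDUFA6 are accessory subunits of the matrix arm of complex I. NDUFA2 had 23.8% and 22.2% with ascorbic acid against 28.0% and 28.3% in control libraries over 2 sites, a log2 odds ratio of -0.39 ± 0.12 SE (edgeR adjusted p = 0.00748). The groups did not overlap, and the edgeR adjusted p was 0.112 without ascorbic acid 2. The site of NDUFA2 that fell lies at position 140645535 of chromosome 5, 250 bases before the annotated gene end, while the site 2 bases after its annotated start did not pass. The call at 140645535 was lost without ascorbic acid 1, ascorbic acid 2 or control 2 (edgeR adjusted p up to 0.144). NDUFA6 had 34.3% and 38.4% with ascorbic acid against 42.7% and 43.2% in control libraries over 5 sites (log2 odds ratio -0.40 ± 0.12 SE, edgeR adjusted p = 0.0098). Most of its change sat in 1 site, position 42086049 of chromosome 22 on the - strand, with 60.7% and 63.7% with ascorbic acid against 72.2% and 75.3% in control libraries. The other 4 sites of NDUFA6 did not pass, 1 of them was higher on average with ascorbic acid, and the gene's edgeR adjusted p was 0.192 without ascorbic acid 1. The call at 42086049 was lost without ascorbic acid 1 (edgeR adjusted p = 0.0725) or control 2 (0.061).

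NDUFB2, a membrane arm subunit of complex I, was the only gene that rose. Its 2 tested sites lie 6 bases apart, at positions 140704873 and 140704879 of chromosome 7 on the + strand, with 3374 to 4046 reads in a library. The first had 22.0% and 17.7% with ascorbic acid against 11.4% and 15.9% in control libraries, and the second 21.1% and 17.3% against 11.0% and 15.7% in control libraries. Both sites had ascorbic acid above control, but the libraries within each group differed by more than ascorbic acid 2 and control 2 did. The gene changed by a log2 odds ratio of 0.64 ± 0.13 SE (edgeR adjusted p = 0.000253), and the limma test gave an adjusted p of 0.112. Both site calls were lost without ascorbic acid 1 (edgeR adjusted p = 0.1 and 0.12), and over all settings the gene's adjusted p was between 2.93e-42 and 0.114. Over all tested sites, a listed neighbour at exactly 6 bases was found for 3129, of which 3.96% rose, while 17.4% fell. The part of that spacing in the NDUFB2 result was not tested.

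The other core subunits of complex I described here did not pass as genes. NDUFS7, which carries the last iron-sulfur cluster before the quinone site, had 44.4% and 46.6% with ascorbic acid against 48.2% and 49.1% in control libraries over 7 sites (edgeR adjusted p = 0.084). One of those 7 sites fell, position 1394699 of chromosome 19, at 58.2% and 68.0% with ascorbic acid against 70.4% and 74.9% in control libraries (edgeR adjusted p = 0.00725). That call was lost without ascorbic acid 1 (edgeR adjusted p = 0.353) and without control 2 (edgeR adjusted p = 0.239). NDUFS8, an iron-sulfur subunit, had overlapping groups and a mean difference of 0.50 points. NDUFV2, an iron-sulfur subunit of the NADH-binding tip, held 2 strongly read sites at the very end of its annotated gene, 10 and 2 bases before the end, with means of 88.8% and 60.7% with ascorbic acid and 92.0% and 62.7% in control libraries. Neither passed. NDUFA10, an accessory subunit, had 1 site that fell, at position 239957796 of chromosome 2, with 88.0% and 77.3% with ascorbic acid against 100.0% and 96.7% in control libraries. That site had only 20 reads in its shallowest library, and the call was lost without ascorbic acid 2, control 1 or control 2 (edgeR adjusted p up to 0.245).

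Some complex I genes had groups that did not overlap and still did not pass. NDUFA8, an accessory subunit, had 13.2% and 13.7% with ascorbic acid against 14.9% and 17.7% in control libraries (edgeR adjusted p = 0.0612). NDUFB7 had 20.5% and 19.6% with ascorbic acid against 22.3% and 25.5% in control libraries (edgeR adjusted p = 0.0877). In both genes the groups were apart by less than the 2 control libraries were from each other. NDUFA13, also named GRIM-19, leaned the other way with 17.6% and 19.6% against 13.4% and 16.5% in control libraries (edgeR adjusted p = 0.103).

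Complex II, the succinate dehydrogenase, had 2 measured genes, and SDHC fell. SDHC had 38.9% and 39.3% with ascorbic acid against 41.1% and 45.5% in control libraries over its start site and a site 332 bases before the gene end (log2 odds ratio -0.25 ± 0.10 SE, edgeR adjusted p = 0.0287). The groups were apart by less than the gap between the control libraries. The gene's call was lost without ascorbic acid 1 (edgeR adjusted p = 0.151), ascorbic acid 2 (0.117) or control 2 (0.301). SDHA, the flavoprotein that oxidises succinate, had 32.4% and 25.5% with ascorbic acid against 29.8% and 29.5% in control libraries, with overlap.

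Complex III, the cytochrome bc1 complex, had 7 measured genes, of which UQCR10, UQCRH and UQCR11 fell. All 3 encode small accessory subunits. UQCR10 held the site with the smallest edgeR p of the 160, at position 29769872 of chromosome 22 on the + strand, 541 bases before the gene end. It was read as A in 70.0% and 69.4% of reads with ascorbic acid against 82.8% and 83.3% in control libraries, from 3394 to 4402 reads (log2 odds ratio -1.09 ± 0.09 SE, edgeR adjusted p = 3.02e-13). The gap between the groups was many times the difference between libraries of a group. A second site of UQCR10, at position 29769827, had 10.2% and 10.4% with ascorbic acid against 12.1% and 13.6% in control libraries (edgeR adjusted p = 0.0032, and up to 0.126 with 1 ascorbic acid library left out). The gene fell under every setting tried (log2 odds ratio -0.39 ± 0.07 SE, edgeR adjusted p = 7.07e-05).

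UQCRH, the hinge protein between cytochrome c1 and cytochrome c, had 1 site, at position 46316593 of chromosome 1, 183 bases before the gene end. It had 10.7% and 10.5% with ascorbic acid against 14.4% and 14.3% in control libraries, on 7745 to 9589 reads (log2 odds ratio -0.50 ± 0.07 SE, edgeR adjusted p = 8.94e-06 for the gene). The change is small in points and larger than the spread, although the limma test on log odds gave 0.0679. UQCRHL, a near-identical copy of UQCRH, had 12.1% and 16.1% with ascorbic acid against 16.5% and 18.2% in control libraries, and reads may have been divided between the copies. UQCR11 had 13 tested sites, the most of any subunit gene, and 35.3% and 34.2% with ascorbic acid against 37.3% and 37.8% in control libraries (log2 odds ratio -0.18 ± 0.07 SE, edgeR adjusted p = 0.0423). One of the 13 fell, at position 1598004 of chromosome 19, at 93.7% and 94.7% with ascorbic acid against 98.6% and 99.5% in control libraries (edgeR adjusted p = 2.73e-07). Another strongly read site of UQCR11, at position 1597819, stood at means of 91.6% with ascorbic acid and 91.2% in control libraries, and did not pass. Of the UQCR11 sites, 4 have a listed site 6 bases away, among them 1598004, the only one that fell. Fitted without these 4, and so without its only called site, the gene's edgeR adjusted p was 0.882. It was 0.174 without ascorbic acid 1 and 0.368 without ascorbic acid 2.

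In the other complex III genes no test passed. UQCRC1, a core protein on the matrix side, had 46.9% and 43.4% with ascorbic acid against 36.8% and 41.5% in control libraries on 38 to 76 reads. UQCRQ, a small subunit beside cytochrome b, had 16.9% and 21.7% against 18.3% and 22.9% in control libraries. UQCRB, also beside cytochrome b, had means over 6 sites of 25.5% with ascorbic acid and 25.7% in control libraries.

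Complex IV, the cytochrome c oxidase, had 9 measured genes, and COX7A2L was the only one that fell. COX7A2L links complexes III and IV in supercomplexes. It had 39.8% and 40.8% with ascorbic acid against 48.0% and 44.4% in control libraries over 2 sites (log2 odds ratio -0.34 ± 0.10 SE, edgeR adjusted p = 0.00809), and the groups did not overlap. Both of its sites fell, with 63.0% and 63.8% against 75.7% and 69.9% in control libraries at position 42351203 of chromosome 2, and 29.0% and 30.1% against 36.5% and 35.3% in control libraries at 42350908. Without ascorbic acid 1 the gene's edgeR adjusted p was 0.0731. The first site's call was lost without ascorbic acid 1, ascorbic acid 2 or control 1 (edgeR adjusted p up to 0.122), and the second's without either ascorbic acid library (up to 0.131).

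COX6A1, the broadly expressed form of subunit VIa, showed both kinds of site in 1 mRNA. Near its gene end, 104 bases before it, the site at position 120440626 of chromosome 12 had 24.9% and 26.2% with ascorbic acid against 29.7% and 30.3% in control libraries, on 6167 to 7180 reads (edgeR adjusted p = 0.00226). The site at position 120440607 had 14.4% and 13.2% with ascorbic acid against 15.9% and 17.3% in control libraries (edgeR adjusted p = 0.0131). Both fell, while the first base, shown above, and the base 5 further on did not pass. The first of these calls was lost without either ascorbic acid library (edgeR adjusted p up to 0.177), and the second without ascorbic acid 1, ascorbic acid 2 or control 2 (up to 0.319). COX6A1 as a gene had an edgeR adjusted p of 0.0586. COX4I1, which holds a regulatory nucleotide site, had 13.2% and 13.4% with ascorbic acid against 15.7% and 16.9% in control libraries (edgeR adjusted p = 0.101). COX6C had 20.9% and 19.5% with ascorbic acid against 14.3% and 21.1% in control libraries, so that the control libraries lay on either side of the ascorbic acid ones. The remaining complex IV genes, COX5A, COX5B, COX7A2, COX7B and COX8A, each had 1 tested site, at or near a start, and overlapping groups.

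Complex V, the ATP synthase, had 12 measured subunit genes and none passed in either direction by edgeR, with the limma and DESeq2 tests also calling none. At an unadjusted p under 0.05, edgeR had 2 of the 12 lower and 0 higher, beside 6638 of all 10782 genes lower and 49 higher. ATP5F1D, the delta subunit of the central stalk, came nearest, with 25.2% and 23.3% with ascorbic acid against 25.3% and 29.1% in control libraries (edgeR adjusted p = 0.0513). Its site 41 bases before the gene end, at position 1244784 of chromosome 19, did fall, at 13.3% and 13.4% with ascorbic acid against 18.7% and 21.3% in control libraries on 1038 to 1158 reads (edgeR adjusted p = 6.86e-05). ATP5PF, a peripheral stalk subunit, had 30.4% and 29.4% with ascorbic acid against 32.5% and 35.1% in control libraries (edgeR adjusted p = 0.0638). ATP5MPL (now ATP5MJ), a small membrane subunit, had 1 site that fell, 77 bases before the gene end, at 38.1% and 39.1% with ascorbic acid against 44.9% and 43.1% in control libraries (edgeR adjusted p = 0.0414). That call was lost without ascorbic acid 1, ascorbic acid 2 or control 1 (edgeR adjusted p up to 0.247). ATP5IF1, the inhibitor of the synthase, had means over 8 sites of 15.4% with ascorbic acid and 16.1% in control libraries, and no site of it passed. Neither ATP5MC3, of the c ring, nor ATP5PO, at the top of the peripheral stalk, passed (edgeR adjusted p = 0.15 and 0.18), although both ascorbic acid libraries were below both control libraries in each.

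**Figure D4:**
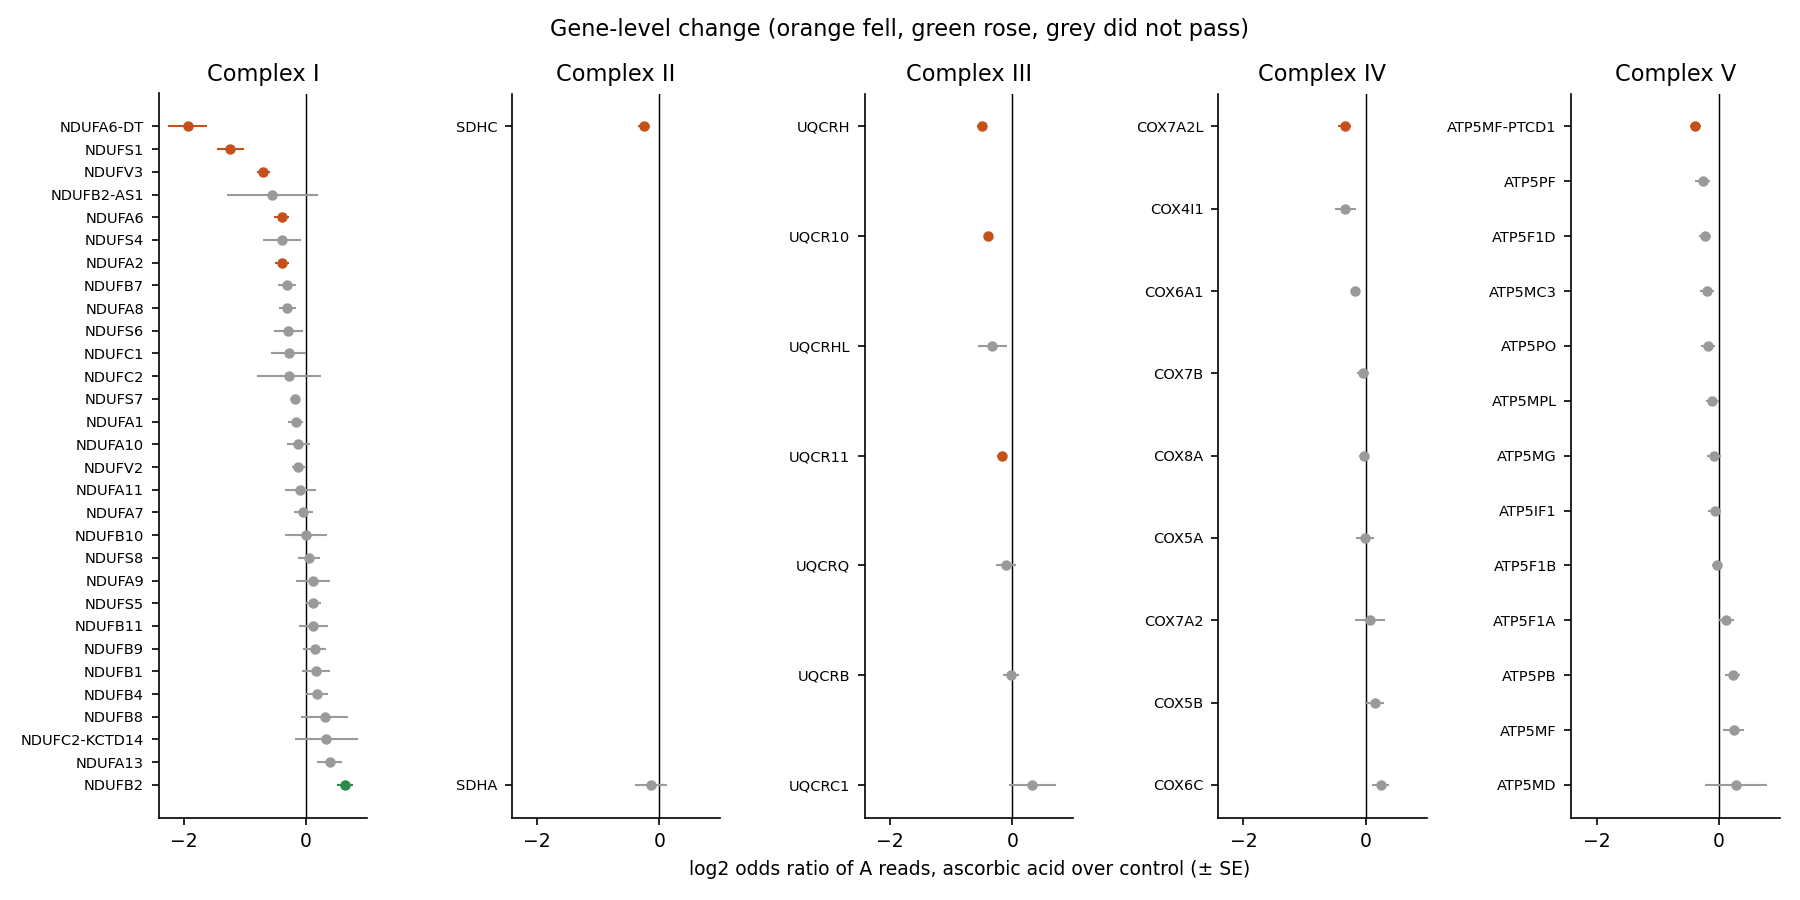
Log2 odds ratio of A reads, ascorbic acid over control, with its SE for the respiratory chain genes reported here, by complex, from the edgeR fit on 2 libraries a group. Orange genes fell, the green gene rose and grey genes did not pass. In complex V the only gene that passed is the readthrough ATP5MF-PTCD1.

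Rows that carry a respiratory chain name without being a subunit mRNA held the largest single difference. NDUFA6-DT is a noncoding gene that starts beside NDUFA6 on the opposite strand. Its site at position 42091439 of chromosome 22, + strand, had 36.1% and 31.4% with ascorbic acid against 77.5% and 82.4% in control libraries (log2 odds ratio -3.00 ± 0.44 SE, edgeR adjusted p = 6.41e-07). The groups were far apart on 36 to 51 reads, and the site and the gene passed under every setting tried. NDUFB2-AS1, antisense to NDUFB2, had means of 86.7% with ascorbic acid and 89.8% in control libraries on 20 to 41 reads and did not pass. ATP5MF-PTCD1 is a readthrough of the membrane subunit gene ATP5MF into PTCD1, a protein of mitochondrial RNA metabolism, and 20 of its 21 tested sites lie within PTCD1. It had 56.0% and 54.9% with ascorbic acid against 60.3% and 63.5% in control libraries (log2 odds ratio -0.38 ± 0.09 SE, edgeR adjusted p = 0.000775), and 5 of its sites fell. The call at 99419281 was lost without ascorbic acid 2, control 1 or control 2 (edgeR adjusted p up to 0.491), that at 99419910 without ascorbic acid 2 (0.0677) and that at 99425540 without control 2 (0.0873). Of these 5, position 99435192 of chromosome 7 had the widest gap, at 75.8% and 76.3% with ascorbic acid against 91.1% and 91.8% in control libraries (edgeR adjusted p = 2.11e-05). Its site in the start window had 31.9% and 32.0% with ascorbic acid against 33.7% and 34.0% in control libraries and did not pass.

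Splitting the sites by place and level set the respiratory chain beside all sites of the same kind. In the start window 1 of 54 respiratory chain sites fell, 1.85%, beside 4.66% of all 1932 window sites, and 1 rose, 1.85%, beside 0.673% of all. Outside it 24 of 106 fell, 22.6%, beside 26.2% of all sites outside, and 2 rose, 1.89%, beside 0.209% of all. Both of these risen sites were the NDUFB2 pair, 6 bases apart. With sites that have a listed site 6 bases away left out, 23 of 91 outside fell, 25.3%, beside 26.6% of all. Of those 91, 0 rose, beside 0.0598% of all. Among sites outside the window with a 4-library mean level of 60 to 100%, 52.2% of 23 respiratory chain sites and 46.1% of all sites fell. In subunit genes alone 7 of 14 such sites fell, or 50%. At 40 to 60% the shares were 15.8% of 19 respiratory chain sites and 29.3% of all. At 20 to 40% they were 15.6% of 32 and 17.5%, and at 10 to 20% they were 12.5% of 32 and 9.02%. In that lowest range 6.25% of the respiratory chain sites rose, beside 0.82% of all. By any amount 50% were lower with ascorbic acid, beside 75.3% of all, and the median site difference was 0.10 points, beside -1.91. Depth was not matched: the median of each site's lowest library was 429 reads there, beside 149 over all. At 60 to 100% it was 142 beside 73 reads. Low levels were common in these genes: 39.4% of the respiratory chain sites, against 18.8% of all sites, had a mean level of 10 to 20%. The high sites that fell outside the window include those of UQCR10, NDUFV3, NDUFA6 and COX7A2L described above. They also include the 5 fallen sites of the readthrough ATP5MF-PTCD1.

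**Figure D5:**
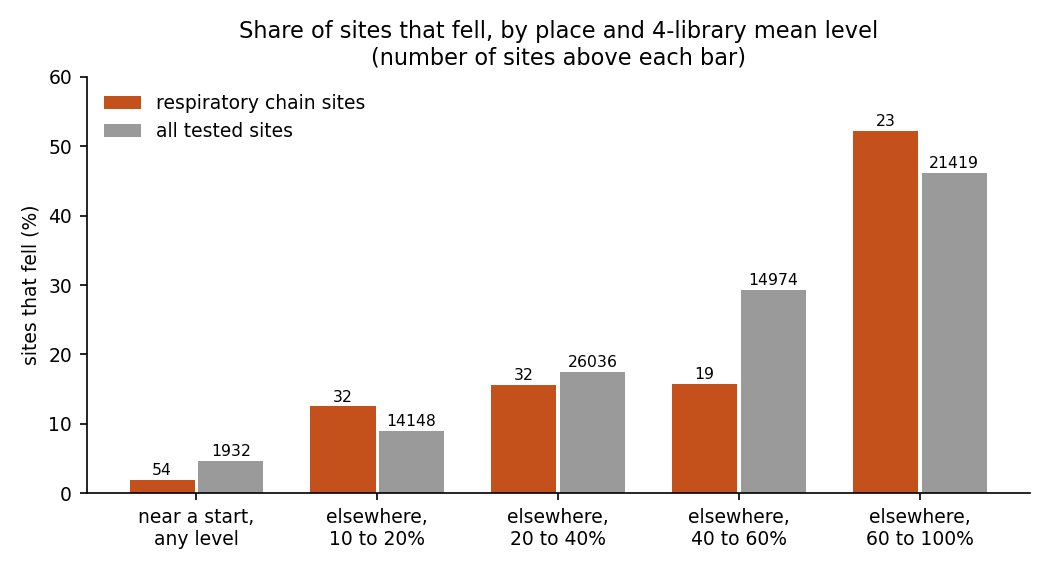
Share of sites that fell (percent, edgeR adjusted p under 0.05) among respiratory chain sites (orange) and all tested sites (grey), for sites in the start window and, outside it, by mean level over the 4 libraries. The number of sites stands above each bar. The share is lowest near a start and highest for levels of 60 to 100% in both sets.

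Genes that serve the chain without being subunits were read from lists drawn up from general knowledge. Of 47 measured assembly factors of the complexes, 29 fell, 61.7% beside 56.8% of all genes, and none rose. ACAD9, an assembly factor of complex I, had 22.0% and 25.4% with ascorbic acid against 50.0% and 50.3% in control libraries, a log2 odds ratio of -1.69 ± 0.10 SE (edgeR adjusted p = 3.45e-11). BCS1L, which inserts the iron-sulfur protein into complex III, had 26.8% and 28.6% with ascorbic acid against 47.7% and 49.7% in control libraries (edgeR adjusted p = 5.68e-10). Of 25 measured regulators of mitochondrial gene expression 17 fell, among them POLRMT, the mitochondrial RNA polymerase, with 31.5% and 31.4% with ascorbic acid against 43.5% and 42.5% in control libraries. The coenzyme Q synthesis list had 6 of 11 fallen, the electron carriers and feeders 4 of 6, and the tricarboxylic acid cycle 7 of 16, and none of these rose, by edgeR also at an unadjusted p under 0.05. The median log2 odds ratio of these lists was between -0.69 for coenzyme Q synthesis and -0.24 for the tricarboxylic acid cycle, beside -0.10 for the 62 respiratory chain genes. Tested sites per gene differ between these sets, with a median of 4 in assembly factors and 1.5 in the respiratory chain genes, and the part of that difference in the counts was not tested.

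Levels of the mRNAs themselves were read from the coverage that the authors gave for each gene, scaled between libraries. In bulk samples, fewer cells with an mRNA and less mRNA per cell cannot be told apart. Of 65 respiratory chain genes with a coverage in every library, none passed the limma test, beside 0.253% of all genes that rose and 0.0422% that fell, and 3 had an unadjusted p under 0.05, beside 1710 of all 11848 genes. Those were UQCRQ, NDUFB11 and NDUFA9, all lower with ascorbic acid. UQCRQ had a scaled coverage of 1501 and 1480 with ascorbic acid against 1840 and 1790 in control libraries (log2 change -0.28 ± 0.06 SE, limma adjusted p = 0.123), and its groups did not overlap. The widest differences were in COX7B (log2 change -0.38) and NDUFS4 (0.17), and the median was -0.04. Without control 1 the limma test called 5 of the 65 (3 fell and 2 rose), beside 122 of all 11848 genes that fell and 236 that rose. Without control 2 it called 1, which fell, beside 9 of all genes that fell and 37 that rose. NDUFS1, NDUFV3 and UQCR10, whose m6A levels fell, were not among the genes with an unadjusted p under 0.05 for coverage.

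The 2 control libraries decided part of the gene counts. Without control 1, whose unconverted share was the lowest, 21 of the 62 genes fell and 1 rose, beside 59.9% of all genes that fell and 30 of 10782 that rose. Among the fallen were COX6A1 (log2 odds ratio -0.28), ATP5F1D (-0.36) and NDUFA8 (-0.46). Without control 2, 11 fell and 7 rose, the risen ones being ATP5MF, ATP5PB, COX5B, COX6C, NDUFA13, NDUFB2 and NDUFB4, beside 49.6% of all genes that fell and 98 of 10782 that rose. COX6C had a log2 odds ratio of 0.60 without control 2 and of -0.08 without control 1. NDUFS1, NDUFV3, UQCR10, UQCRH, NDUFA6-DT, ATP5MF-PTCD1 and NDUFB2 passed by edgeR with any 1 library left out. The gene value of NDUFB2 sums 2 sites 6 bases apart, where a read can count at both. Both of its site calls were lost without ascorbic acid 1, and the gene did not pass in 4 of 11 settings.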

How the data were processed

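GLORI libraries of 2 ascorbic acid and 2 control samples of HEK293T cells were analysed from the authors' site lists, 1 per library. Per the submitters' processing notes, reads were trimmed with Trimmomatic 0.39 and aligned with STAR to GRCh38 (hg38). Each deposited list gives, per site, the count of A reads and of A plus G reads, their ratio as a fraction, a p-value, the gene's coverage (a signal whose unit the files do not state) and its unconverted share as a fraction. The lists hold only sites with at least 15 reads, 5 A reads and a level of 10%, so a site that dropped below these limits is missing, not low.

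The 78509 sites that every library listed on 20 or more A plus G reads were tested together, and genes over their summed reads. The edgeR quasi-likelihood test (edgeR 4.0.16, R 4.3.3) was run on A and G counts with a term for each library, and the treatment effect is on the odds of A, two-sided, with Benjamini-Hochberg adjustment over all sites or genes. A log2 odds ratio is of ascorbic acid over control, and SD is over n = 2 libraries. Scaled gene coverage was tested on the log2 scale with limma 3.58.1, with genes of at least 10 in each library as an alternative. Other fits used limma on log2 odds with a pseudocount of 0.5, and DESeq2 1.42.0. The scripts were tested on simulated data. Depth per site is given beside its level, and counting error is the only error that depth describes. RefSeq names, starts and sequences are those of GRCh38.p14: 76 of the 78 genes matched by symbol and 2 by synonym. With gene spans and promoter windows alone, exon, intron and UTR could not be assigned. A gene counted in the totals is not reported here.

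The members, the lists and the tests were chosen with earlier results of these data known. The genes named are those that passed, up to 6 per complex with the smallest p, start window sites, the highest and lowest levels, the largest coverage changes, and 3 per other list.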

Additional observations from a re-analysis of the deposited data

How the results depend on the processing

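The count of respiratory chain sites called was 28 by edgeR, 9 by limma, 15 by DESeq2 and 5 by limma after subtraction of the unconverted share, and 16 to 27 with 1 library left out. Over all 78509 sites the share that fell was 25.7% by edgeR, 13% by limma, 12.8% by DESeq2 and 12% after subtraction. The corresponding counts of genes were 12, 5, 6 and 6, and 8 to 22 with 1 library left out, while 56.8%, 40.9%, 38.9% and 40.5% of all genes fell. With the replicate number as a block, 29 sites and 14 genes were called and coverage gave 0. The labels do not say whether libraries with the same number were handled as a pair. The correlation of replicate deviations was 0.17 over the respiratory chain sites and -0.01 over all sites, which cannot decide it. The difference of the median site levels was -3.75 points, -0.80 with at least 50 reads, -1.94 as a median over genes, and -4.96 to -2.53 with 1 library left out. Taken over each library's own list it was reversed, at 1.39 points, where the libraries do not share their sites. Coverage called 0 genes by limma, 0 to 5 with 1 library left out. Of the 28 sites 5, and of the 12 genes 4, passed under every setting in which they were tested, and no called site or gene changed sign. The causes of these shifts were not tested. At 20 reads a level rests on few A reads, and the limma test, with 2 libraries a group, called fewer sites than edgeR.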
